A study of Mus musculus with 18 samples.

Results

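Contractile genes make up 43 of the 35275 genes in the count table, taken by gene name alone: 29 genes of the sarcomere of skeletal and heart muscle, and 14 genes of smooth muscle and myofibroblasts. Their RNA was measured in 18 libraries from 6 primary cell lines of malignant peripheral nerve sheath tumors (MPNST), aggressive sarcomas that arise in nerves, often where the Ras inhibitor Nf1 is lost. The study compared tumor lines that lack p53 with lines that lack Cdkn2a, on the same loss of Nf1. The present account asks which contractile genes the lines express, how far the lines of one genotype differ from each other, and what separates the genotypes.

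The Nf1/p53 dKO lines (Nf1-/-;p53-/-) and the Nf1/Cdkn2a dKO lines (Nf1-/-;Cdkn2a-/-) came from wild-type mice of the 129 Sv/Jae strain. An adenovirus that expresses Cas9 had been injected into their sciatic nerve, with guide RNAs to Nf1 and Trp53, the p53 gene, in the first case, and to Nf1 and the p16 and p19 transcripts of Cdkn2a in the second. Every line therefore shares the loss of Nf1, the virus and the site of injection. Cas9 was driven by the CMV promoter, which is not restricted to a cell type, so the cell that gave rise to each tumor is not fixed by the design. There were 3 lines per genotype, each from a separate tumor and each in 3 cultures. Lines were passaged at least 20 times and received no treatment. The labels call the cells mesenchymal, and the mesenchymal marker Vim stood at 4727 to 10207 CPM in the 6 lines (reads of a gene scaled to library size), while the Schwann cell marker Sox10 had under 10 counts in every line.

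Each culture held between 19560535 and 28312207 counts, and the 3 cultures of a line together between 65206479 and 73065228. A line's level below is its CPM over those 3 cultures, and 3 counts, the most that a count of 0 allows, correspond to 0.0387 to 0.0481 CPM. This limit covers counting error only. Trp53 RNA was 94.1, 67.5 and 58.7 CPM in Nf1/p53 dKO lines 1 to 3 and 247, 246 and 185 CPM in Nf1/Cdkn2a dKO lines 1 to 3 (log2 fold change 1.62 ± 0.23, adjusted p = 0.036 by edgeR's quasi-likelihood test). Nf1 and Cdkn2a RNA did not pass the test between genotypes (adjusted p = 0.328 and 0.83). A Cas9 cut need not lower a gene's RNA, so these levels do not check the labels. Throughout, a positive log2 fold change means higher in the Nf1/Cdkn2a dKO, and adjusted p-values are over all 15207 genes tested. Errors are standard errors for 3 lines against 3, computed from the fold change and the F statistic of edgeR's test. That statistic draws on the spread of all genes, not of the 1 gene alone.

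Striated muscle is built of sarcomeres, in which thick filaments of myosin pull on thin filaments of sarcomeric actin under the control of the calcium-binding troponin complex. Nebulin (Neb) lines the thin filament, titin (Ttn) spans the sarcomere from its edge to its middle, and alpha-actinins and desmin (Des) anchor it. Fast, slow, heart and developing fibers use different members of the same families, so the mix of isoforms tells fiber types apart. Smooth muscle and myofibroblasts have no sarcomeres. They contract through the actins Acta2 and Actg2, smooth muscle myosin (Myh11, Myl9) and its kinase Mylk, with calponins, transgelin, caldesmon and tropomyosins on the filament, and many of these genes are also on in fibroblasts in culture.

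Sarcomere RNA was a small share of each library and differed by over 10-fold between lines. Its 29 genes summed to 87.8, 135 and 176 CPM in Nf1/p53 dKO lines 1 to 3. In the Nf1/Cdkn2a dKO the sum was 53.9 CPM in line 1 but 12.6 and 16.0 CPM in lines 2 and 3. Of the 29 genes, 24 reached 10 counts in some line. Tnnc2, troponin C of fast fibers, had no count in any library. Myh7, Myh8, Myl2 and Myl3, which are myosins and myosin light chains of slow, perinatal and heart muscle, stayed under 10 counts in every line. In these bulk cultures, fewer cells that express a gene and less RNA per cell cannot be told apart.

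Per kilobase of exon, the leading sarcomere gene changed from line to line. Des, the intermediate filament protein desmin, took 21.7% of the summed sarcomere level per kilobase in Nf1/p53 dKO line 1 and 46.8% in line 3. Acta1, skeletal alpha-actin, led in Nf1/p53 dKO line 2 (37.8%) and in Nf1/Cdkn2a dKO line 1 (15.7%). Tnnc1, troponin C of slow and heart muscle, led in Nf1/Cdkn2a dKO lines 2 and 3 (49.4% and 32.3%).

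The fast-fiber genes form the largest group, with 12 members, and 4 of the 6 lines held most of their RNA. Stretches of 250 bases before the start of Myh4, of the fast light chain gene Myl1 and of Ckm, muscle creatine kinase, from RefSeq on GRCm38.p6, are shown because these genes carry the pattern that follows. Capitals mark E-boxes (CANNTG), which myogenic bHLH factors bind, and CArG boxes, which serum response factor (SRF) binds.
Myh4 (chr11:67237562-67237811, plus strand): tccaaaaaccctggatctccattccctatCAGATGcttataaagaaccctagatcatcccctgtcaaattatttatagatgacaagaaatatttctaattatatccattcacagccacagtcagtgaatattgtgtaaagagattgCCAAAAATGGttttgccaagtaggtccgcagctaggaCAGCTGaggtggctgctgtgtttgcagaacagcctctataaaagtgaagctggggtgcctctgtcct
Myl1 (chr1:66945057-66945306, minus strand): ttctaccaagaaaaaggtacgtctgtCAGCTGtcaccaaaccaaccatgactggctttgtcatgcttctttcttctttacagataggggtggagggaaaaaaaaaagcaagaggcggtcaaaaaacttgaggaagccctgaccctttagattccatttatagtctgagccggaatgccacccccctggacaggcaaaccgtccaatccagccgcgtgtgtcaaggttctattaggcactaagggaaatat
Ckm (chr7:19410844-19411093, plus strand): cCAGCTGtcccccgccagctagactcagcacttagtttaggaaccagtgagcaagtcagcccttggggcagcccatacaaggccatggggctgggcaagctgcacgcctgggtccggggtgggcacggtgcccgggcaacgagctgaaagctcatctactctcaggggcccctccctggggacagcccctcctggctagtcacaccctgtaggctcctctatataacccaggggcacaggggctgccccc
Myh4 holds a CArG box 104 bases before its start and E-boxes at 221 and 67 bases. E-boxes were common in such windows: 66.2% of the 32851 promoters in the table held one, as did 28 of the 32 promoters of sarcomere genes, while CArG boxes were in 1.47% of all promoters and in 4 of these 32. Only exact matches to the consensus CArG pattern were counted, and sites that differ from it by a base were not searched. These are matches of letters, not measured binding.

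Myh4 encodes the myosin heavy chain of the fastest fibers (IIb) and lies on chromosome 11 (67238029 to 67260446, plus strand, GRCm38) in a cluster with Myh1, Myh2, Myh3 and Myh8. Its 3 cultures held 300, 264 and 336 counts in Nf1/p53 dKO line 1, 708, 199 and 96 in line 2, and 114, 323 and 121 in line 3. In Nf1/Cdkn2a dKO line 1 they held 325, 237 and 109 counts. Lines 2 and 3 of that genotype had 2 counts and 0 counts over all their cultures. Nf1/Cdkn2a dKO line 1 (10.8 CPM) thus lay within the range of the Nf1/p53 dKO lines (7.72 to 14.2 CPM) and apart from the other two lines of its own genotype, and the genotypes overlapped. Between the 3 lines of the Nf1/Cdkn2a dKO the adjusted p was 4.21e-08 (edgeR, over the spread between cultures), between those of the Nf1/p53 dKO 0.229, and between genotypes 0.651.

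Other fast-fiber genes divided the lines in the same way. Tnnt3, the fast-fiber troponin T, was at 4.01, 6.55 and 2.70 CPM in Nf1/p53 dKO lines 1 to 3 and at 3.74, 0.144 and 0.344 CPM in Nf1/Cdkn2a dKO lines 1 to 3. Atp2a1, the calcium pump of the fast-fiber sarcoplasmic reticulum, was at 3.38, 4.58 and 4.54 CPM against 3.43, 0.115 and 0.188 CPM. In both genes Nf1/Cdkn2a dKO line 1 lay within the range of the Nf1/p53 dKO lines. The inhibitory troponin Tnni2 had 118, 219 and 147 counts across the Nf1/p53 dKO lines and 90, 0 and 0 in the Nf1/Cdkn2a dKO lines. Pvalb, the calcium buffer parvalbumin, had 143, 178 and 80 counts against 103, 0 and 0. Ckm, which fast and slow fibers both use, had 111, 106 and 64 counts against 82, 0 and 1. For these 3 genes every count of the Nf1/Cdkn2a dKO but 1 was in line 1. Myl1, the essential light chain of fast myosin, had 140, 404 and 156 counts against 92, 2 and 3.

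Of the 28 contractile genes with at least 30 counts in Nf1/Cdkn2a dKO line 1, 5 had at most 3 in each of lines 2 and 3: Myh4, Myl1, Tnni2, Ckm and Pvalb. Over all genes with at least 30 counts in that line, 17 of 12747 (0.133%) had this pattern. The 5 genes were named after their values were seen. The same line had no count of the myogenic factors Myod1, Myf5 and Myog, which drive muscle differentiation, and 2 counts of Myh3 and 1 of Myh8, the myosins of embryonic and newborn fibers. The part of these values in the result was not tested.

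**Figure D1:**
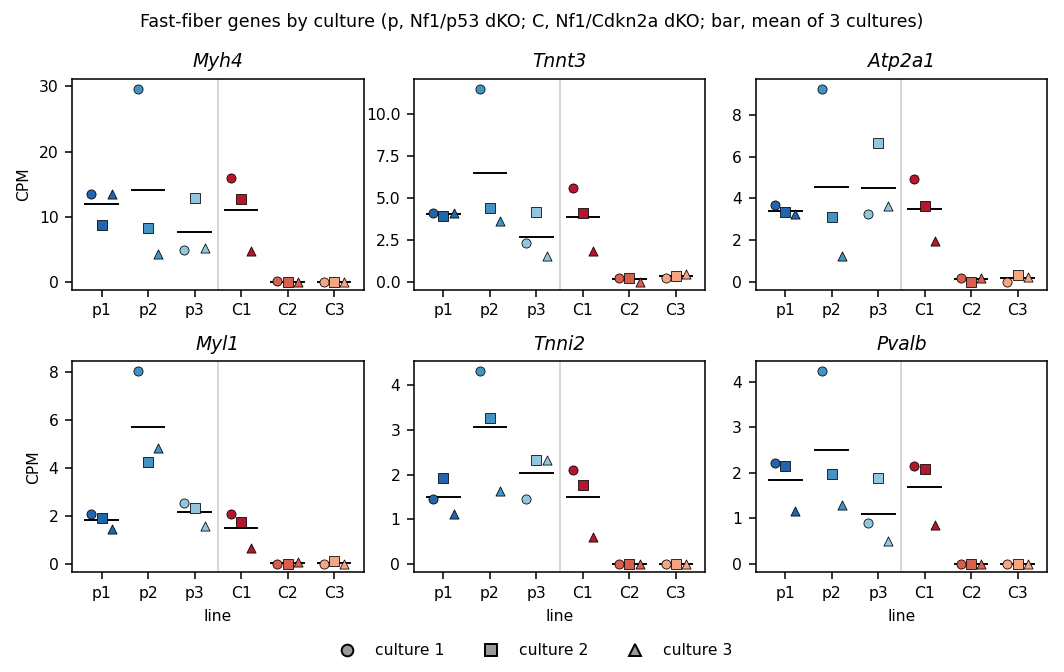
Level of 6 fast-fiber genes (CPM, linear axis) in each of 18 cultures. Points are cultures and bars the mean of the 3 cultures of a line, with no error bar. In Nf1/Cdkn2a dKO lines 2 and 3 the points lie at or near 0, and in Nf1/p53 dKO line 2 culture 1 stands above the other two cultures, for Myh4 at 29.7 CPM.

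The same genes varied between cultures of one line. In Nf1/p53 dKO line 2, Myh4 was at 29.7, 8.20 and 4.26 CPM in cultures 1 to 3, and the 12 fast-fiber genes together at 81.4, 33.1 and 24.7 CPM. The sum of the slow-fiber and heart genes of those cultures stayed level, at 35.3, 34.7 and 34.9 CPM. So did that of the smooth muscle genes, at 7549, 7481 and 7514 CPM. Tnnt2 made up most of the slow-fiber and heart sum, at 21.8, 20.4 and 19.8 CPM. Within it Actc1 was highest in culture 1, at 1.22, 0.412 and 0.0888 CPM, and Tnnt1 in culture 3, at 4.48, 3.59 and 6.26 CPM. The genes of all striated fibers were at 67.8, 47.7 and 43.4 CPM, highest in culture 1 like the fast-fiber genes. In Nf1/Cdkn2a dKO line 1, the fast-fiber sum was 41.2, 32.0 and 14.5 CPM. Nf1/p53 dKO line 3 had its highest sum in culture 2, at 51.3 CPM, against 38.2 and 34.7 CPM.

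Their spread was above counting noise. The variance of the counts over 3 cultures, relative to the variance of counting alone, was 310 for Myh4 in Nf1/p53 dKO line 2, 68.2 in Nf1/Cdkn2a dKO line 1, 66.7 in Nf1/p53 dKO line 3 and 17.9 in Nf1/p53 dKO line 1. In Nf1/p53 dKO line 2 its median was 13.7 over sarcomere genes with at least 30 counts, 2.86 over smooth muscle genes and 2.42 over all genes tested, and in Nf1/p53 dKO line 3 it was 8.16, 3.07 and 2.51. In the other 4 lines the smooth muscle genes had the higher median. It was 8.81 against 2.92 for the sarcomere genes in Nf1/p53 dKO line 1. In Nf1/Cdkn2a dKO lines 1 to 3 it was 13.6, 10.5 and 6.28 against 9.47, 2.79 and 1.86. At the same relative spread this ratio grows with a gene's counts, and the smooth muscle genes had far more counts. In Nf1/Cdkn2a dKO line 1 it was 154 for Tpm1, whose highest culture was 1.13-fold its lowest, and 13.75 for Ckm, at 6.04-fold. The medians thus do not rank these groups of genes by relative spread. Among the sarcomere genes of Nf1/p53 dKO line 2, 17 of 20 were highest in culture 1, where 32.8% of all genes were. The genes of a culture share 1 library and are not independent. With all cultures, 30 of 34 contractile genes were called between the Nf1/Cdkn2a dKO lines and 26 of 34 between the Nf1/p53 dKO lines. Of all genes, 56.8% and 73.2% were called. Without the culture highest in Myh4 of each genotype, 31 and 25 contractile genes were called. These were culture 1 of Nf1/p53 dKO line 2 and of Nf1/Cdkn2a dKO line 1, a choice made after seeing the data. The share of all genes called without them is not given here.

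The remaining fast-fiber genes divided the lines less sharply. Myh1, the myosin of IIx fibers, was at 0.786, 2.08 and 1.88 CPM across the Nf1/p53 dKO lines and at 0.385, 0.159 and 0 CPM across the Nf1/Cdkn2a dKO lines, without overlap (log2 fold change -3.12 ± 1.16, adjusted p = 0.184). Actn3, the alpha-actinin of fast fibers, was at 4.46, 4.19 and 15.9 CPM against 3.35, 1.38 and 2.42 CPM, also without overlap (-1.78 ± 0.65, adjusted p = 0.175). Mylpf, a regulatory light chain of fast myosin, was at 1.87, 3.10 and 3.28 CPM against 1.91, 1.02 and 0.657 CPM, and here the genotypes overlapped. Casq1, the calcium store of fast fibers, was called between the lines of neither genotype (adjusted p = 0.0903 and 0.0776) and stayed at or below 0.58 CPM in every line. Myh2, the myosin of IIa fibers, had 8 to 10 counts in each Nf1/p53 dKO line and 0, 2 and 0 in the Nf1/Cdkn2a dKO lines, too few to be tested.

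Slow-fiber and heart genes had their highest sum in Nf1/p53 dKO line 2, although not every member did. The 8 members summed to 34.98 CPM in Nf1/p53 dKO line 2 and to between 6.19 and 13.7 CPM in the other 5 lines. Tnni1, the slow-fiber inhibitory troponin, had 144, 192 and 155 counts in the cultures of Nf1/p53 dKO line 2 and at most 16 in any culture of another line. Tnnt1, slow-fiber troponin T, was at 4.74 CPM there and at 0.128 to 1.28 CPM elsewhere. Both differed between the lines of the Nf1/p53 dKO (adjusted p = 5.14e-09 and 7.93e-08), with line 2 the highest. The heart troponin T gene Tnnt2 was at 6.84, 20.7 and 3.92 CPM across the Nf1/p53 dKO lines and at 10.3, 3.88 and 2.02 CPM across the Nf1/Cdkn2a dKO lines. Line 1 was thus the highest Nf1/Cdkn2a dKO line, above 2 of the Nf1/p53 dKO lines.

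Tnnc1 stood at one level in all lines, from 1.95 to 3.14 CPM, and was called neither between the genotypes (0.08 ± 0.32, adjusted p = 0.901) nor between the lines of either genotype (adjusted p = 0.0976 and 0.821). It was the one tested sarcomere gene with a positive log2 fold change. Actc1, cardiac alpha-actin, stayed below 0.6 CPM, with 17, 41 and 16 counts across the Nf1/p53 dKO lines and 2, 0 and 10 in the Nf1/Cdkn2a dKO lines. Developing-fiber myosin was nearly absent: Myh3 and Myh8 together had 5, 20 and 23 counts across the Nf1/p53 dKO lines and 3, 0 and 4 in the Nf1/Cdkn2a dKO lines.

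Among genes that all striated fibers use, Ttn was the one sarcomere gene called between genotypes. Ttn lies on chromosome 2 (76703980 to 76982547, minus strand). Its cultures held 323, 442 and 311 counts in Nf1/p53 dKO line 1, 577, 373 and 344 in line 2, and 492, 670 and 566 in line 3. The Nf1/Cdkn2a dKO cultures held 75, 62 and 61 in line 1, 15, 38 and 12 in line 2, and 42, 30 and 22 in line 3. Every Nf1/Cdkn2a dKO culture was below every Nf1/p53 dKO culture. The line levels were 13.9, 18.3 and 23.9 CPM against 3.18, 0.938 and 1.47 CPM (-3.33 ± 0.52, adjusted p = 0.0432). The call was close to the threshold and was lost when any 1 of the 6 lines was left out (adjusted p = 0.0629 to 0.126), and Ttn also differed between the lines of each genotype (adjusted p = 0.00284 and 8.05e-05).

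Des had the widest range of the sarcomere genes with counts in every line. Desmin RNA was at 21.6, 1.30 and 86.6 CPM across the Nf1/p53 dKO lines and at 0.529, 0.0288 and 0.0626 CPM across the Nf1/Cdkn2a dKO lines. The genotypes did not overlap, and the difference was not called (-7.47 ± 1.83, adjusted p = 0.0871). Levels ranged 66.6-fold within the Nf1/p53 dKO and 18.4-fold within the Nf1/Cdkn2a dKO. Neb was at 3.27, 2.90 and 7.22 CPM against 1.83, 0.447 and 0.782 CPM (-2.13 ± 0.65, adjusted p = 0.127), again without overlap. Acta1 was at 4.86, 28.5 and 4.44 CPM against 4.72, 0.577 and 3.61 CPM, so that Nf1/p53 dKO line 2 stood above and Nf1/Cdkn2a dKO line 2 below the other 4 lines. The oxygen store myoglobin, Mb, had 220 counts in Nf1/p53 dKO line 3 and at most 21 in any other line. Actn2, the second sarcomeric alpha-actinin, had 7, 19 and 5 counts against 1, 0 and 3.

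**Figure D2:**
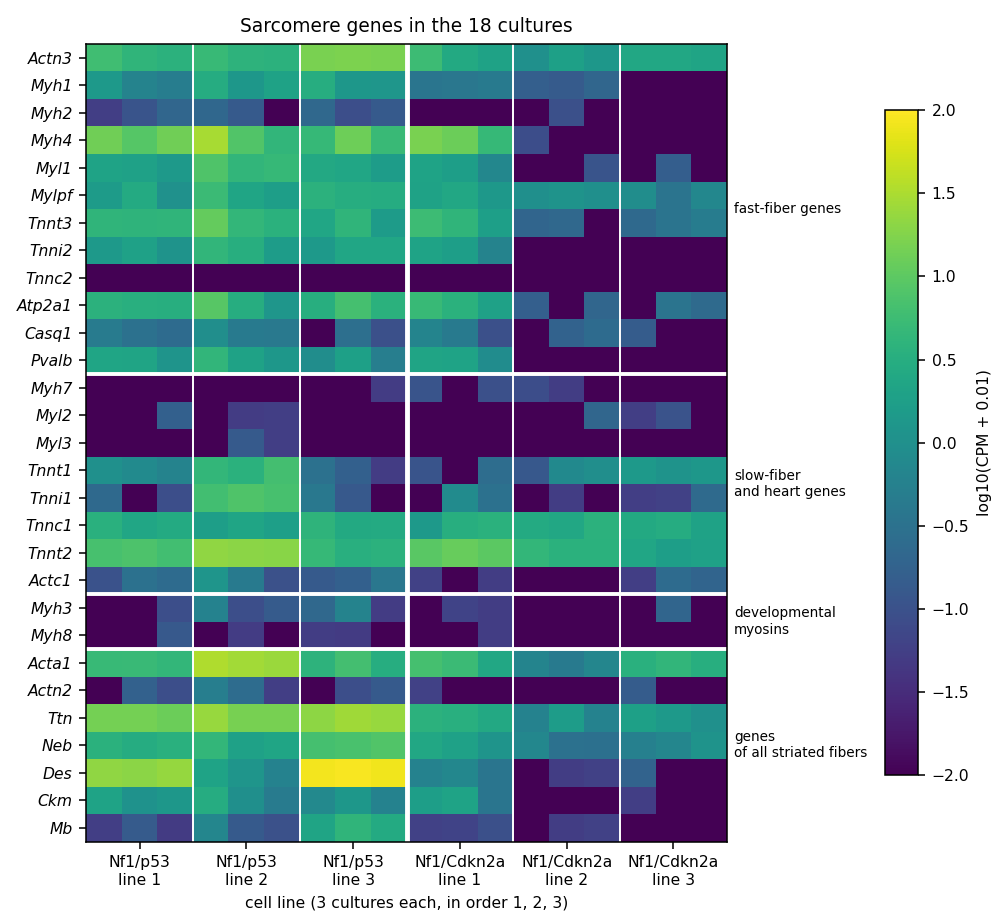
Levels of the 29 sarcomere genes, grouped by role, in 18 cultures, as log10 of CPM + 0.01, so that the darkest cells are genes with no count. Most rows of the fast-fiber block are filled in the 3 Nf1/p53 dKO lines and in Nf1/Cdkn2a dKO line 1. Tnnc2 is dark in every culture and Myh2 in those of Nf1/Cdkn2a dKO line 1. Apart from Actn3 and Mylpf, the block is dark in most cells of Nf1/Cdkn2a dKO lines 2 and 3. There Tnnc1 (2.96 and 2.58 CPM) lies within its range in the other lines.

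Over the sarcomere genes as a group, 20 of 29 could be tested between genotypes, and 9 had too few counts. The filter can pass a gene through the 3 lines of one genotype alone, so the counts that follow only describe the genes that passed. Of the 20, 1 was called (1.8% of all genes were): Ttn, lower in the Nf1/Cdkn2a dKO, a direction in which 1.16% of all genes were called. Called higher there were 0 sarcomere genes and 0.638% of all genes. At an unadjusted p under 0.05 there were 6, all lower (Ttn, Des, Neb, Actn3, Myh1 and Mylpf), where 12.5% of all genes were. In 8 of the 20 the genotypes had no overlap between lines, all lower in the Nf1/Cdkn2a dKO, where 16.6% of all genes were. The log2 fold change was below 0 in 19, and its median was -1.76, beside -0.023 over all genes tested. Without Nf1/Cdkn2a dKO line 1 the median over the 22 genes then tested was -4.06. In that fit 5 genes had at most 3 counts over the 2 lines left, and the median was the same with these genes set to the bound that 3 counts give.

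Lines of one genotype differed often. Of 20 sarcomere genes tested between lines, 12 were called among Nf1/p53 dKO lines and 17 among Nf1/Cdkn2a dKO lines, where 73.2% and 56.8% of all genes were called. The highest line was Nf1/p53 dKO line 2 for 14 and Nf1/p53 dKO line 3 for 6 of the 20 genes tested between genotypes. The lowest was most often Nf1/Cdkn2a dKO line 2 (11 genes) or line 3 (7 genes).

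**Figure D3:**
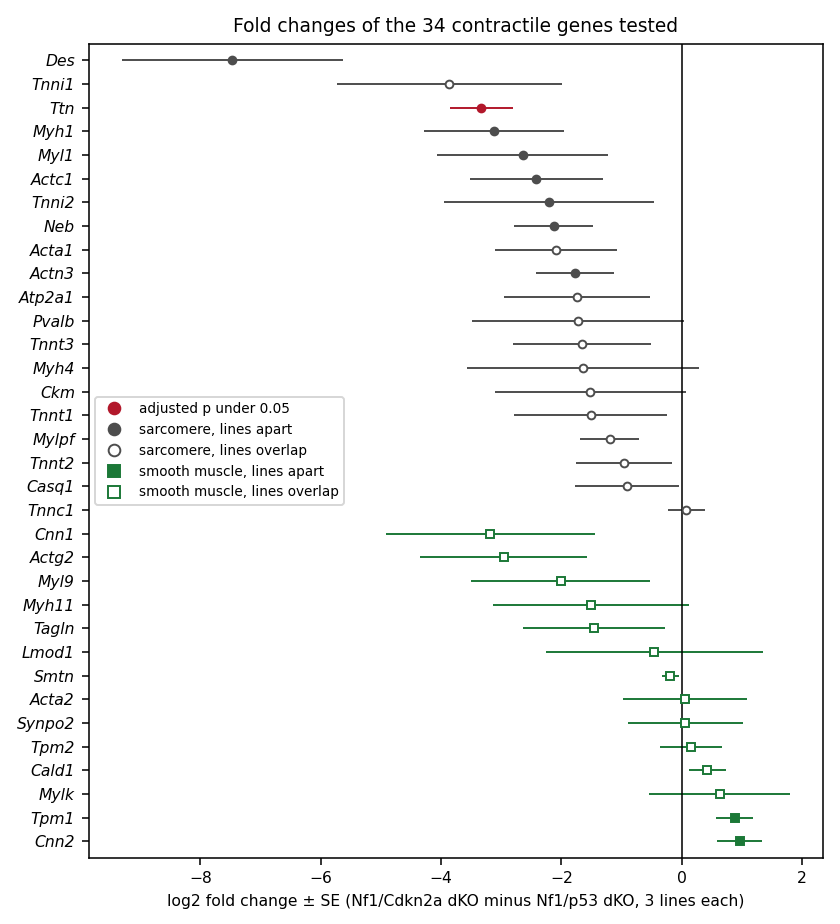
Log2 fold change of the 34 contractile genes tested, Nf1/Cdkn2a dKO against Nf1/p53 dKO, with 1 standard error on either side (3 lines against 3). Filled points are genes whose lines did not overlap between genotypes and the red point is Ttn, the one called gene. Left of 0 (lower in the Nf1/Cdkn2a dKO) lie 19 of 20 sarcomere genes and 7 of 14 smooth muscle genes.

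Smooth muscle and myofibroblast genes were more abundant, with a summed level of 461 to 2387 CPM per kilobase of exon in the 6 lines against 5.75 to 49.4 for the sarcomere genes. Acta2 led this sum in 4 lines and Tpm1 in Nf1/p53 dKO line 3 and Nf1/Cdkn2a dKO line 2. In CPM, the 14 genes summed to 4231, 7510 and 2224 CPM in Nf1/p53 dKO lines 1 to 3 and to 5473, 4298 and 8701 CPM in Nf1/Cdkn2a dKO lines 1 to 3. All 14 passed the filter, and 0 were called between genotypes by edgeR, with 2 at an unadjusted p under 0.05, both higher in the Nf1/Cdkn2a dKO, where 9.81% of all genes were. The median log2 fold change was -0.06, and it moved between -1.37 (without Nf1/Cdkn2a dKO line 3) and 0.46 (without Nf1/p53 dKO line 2). DESeq2 on the 6 lines called 0 and on the 18 cultures as separate samples 6, where that test called 40.5% of all genes. edgeR on the 18 cultures called 5 smooth muscle and 9 sarcomere genes and 46.5% of all genes. Between the lines of one genotype 14 of 14 were called for the Nf1/p53 dKO and 13 of 14 for the Nf1/Cdkn2a dKO, beside 73.2% and 56.8% of all genes. The highest line was Nf1/p53 dKO line 2 for 7 genes, Nf1/Cdkn2a dKO line 3 for 6 and Nf1/p53 dKO line 1 for 1.

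The promoters of 3 smooth muscle genes that differed widely between lines are shown with the same marks (RefSeq, GRCm38.p6, 250 bases before the start).
Acta2 (chr19:34255374-34255623, minus strand): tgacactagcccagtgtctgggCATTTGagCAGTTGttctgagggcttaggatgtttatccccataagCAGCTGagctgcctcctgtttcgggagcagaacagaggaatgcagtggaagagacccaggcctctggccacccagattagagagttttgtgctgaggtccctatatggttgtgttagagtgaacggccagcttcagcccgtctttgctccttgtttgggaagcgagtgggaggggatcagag
Cnn1 (chr9:22099003-22099252, plus strand): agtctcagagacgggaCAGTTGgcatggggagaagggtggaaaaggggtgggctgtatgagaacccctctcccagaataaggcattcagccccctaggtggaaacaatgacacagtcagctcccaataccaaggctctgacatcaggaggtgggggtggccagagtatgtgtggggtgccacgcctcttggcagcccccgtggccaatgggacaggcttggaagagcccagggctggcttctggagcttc
Myl9 (chr2:156775214-156775463, plus strand): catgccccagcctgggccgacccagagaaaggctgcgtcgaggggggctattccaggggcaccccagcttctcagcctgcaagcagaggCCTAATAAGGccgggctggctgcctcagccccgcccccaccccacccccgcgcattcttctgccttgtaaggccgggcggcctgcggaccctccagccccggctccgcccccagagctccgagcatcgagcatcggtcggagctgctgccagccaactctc
Myl9 holds a CArG box 161 bases before its start. The windows of Acta2 and Cnn1 hold E-boxes and no exact match to the CArG pattern. Of the 12 promoters of smooth muscle genes in the table, 2 held such a match and 9 an E-box, and 6 held the MCAT motif (CATTCC, on either strand), which was in 8 of 32 promoters of sarcomere genes and 12.6% of all promoters.

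Both smooth muscle actins were highest in Nf1/p53 dKO line 2 and lowest, within the Nf1/Cdkn2a dKO, in line 2. Acta2, the myofibroblast marker alpha-smooth muscle actin, lies on chromosome 19 (34241090 to 34255590, minus strand). Its level was 614, 2164 and 172 CPM across the Nf1/p53 dKO lines, against 1054, 193 and 1831 CPM across the Nf1/Cdkn2a dKO lines. Each genotype thus held a line near the top and a line near the bottom of the range (0.06 ± 1.03 between genotypes, adjusted p = 0.98). The cultures of a line lay close together: 2161.0, 2181.6 and 2154.1 CPM in Nf1/p53 dKO line 2, and 1828, 1780 and 1858 CPM in Nf1/Cdkn2a dKO line 3. Actg2, gamma-smooth muscle actin, was at 11.7, 68.1 and 3.47 CPM against 5.65, 0.231 and 4.82 CPM (-2.96 ± 1.39, adjusted p = 0.269).

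Calponin 1 and transgelin, both classic markers of contractile smooth muscle, had a similar order over the Nf1/p53 dKO lines. Cnn1 was at 32.1, 170 and 2.39 CPM there and at 6.61, 0.173 and 15.7 CPM across the Nf1/Cdkn2a dKO lines, a 983-fold range over the 6 lines. The cultures of Nf1/Cdkn2a dKO line 2 held 5, 7 and 0 counts of it, and those of Nf1/p53 dKO line 2 held 4074, 4286 and 3672. Tagln was at 160, 867 and 27.8 CPM against 135, 35.4 and 214 CPM (-1.45 ± 1.18, adjusted p = 0.508). In both genes the Nf1/p53 dKO held both a line above and a line below most lines of the other genotype.

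Smooth muscle myosin was low in Nf1/p53 dKO line 3 and in Nf1/Cdkn2a dKO lines 1 and 2. Myh11, its heavy chain and a marker of mature smooth muscle, was at 3.79, 3.20 and 0.0138 CPM against 0.273, 0.101 and 2.10 CPM, with a single count in the whole of Nf1/p53 dKO line 3. The regulatory light chain Myl9 was at 79.0, 168 and 14.6 CPM against 6.35, 0.649 and 58.0 CPM (-2.01 ± 1.49, adjusted p = 0.468). Mylk, the kinase that starts contraction by phosphorylating this light chain, was highest in Nf1/Cdkn2a dKO line 3, at 17.8 CPM, followed by Nf1/p53 dKO line 2 at 8.25 CPM, and was at 0.62 to 2.78 CPM in the other 4 lines. Lmod1, a nucleator of actin filaments in smooth muscle, had the same top pair in the other order, at 11.8 CPM in Nf1/p53 dKO line 2 and 8.70 CPM in Nf1/Cdkn2a dKO line 3. No other line was above 1.03 CPM.

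Synpo2, an actin-bundling protein, had another order, at 60.4, 9.96 and 23.7 CPM across the Nf1/p53 dKO lines, against 23.7, 5.71 and 68.9 CPM across the Nf1/Cdkn2a dKO lines. Smtn, smoothelin, was the steadiest of the group, at 48.2 to 65.8 CPM in all lines. It was the one gene not called between the lines of the Nf1/Cdkn2a dKO (adjusted p = 0.0511).

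Cald1, Tpm1, Tpm2 and Cnn2, which nonmuscle cells also use, varied by 2.68-fold (Cald1) to 4.84-fold (Cnn2) over the 6 lines. This was more than Smtn (1.37-fold) and less than the other members, among them Mylk (28.7-fold), Tagln (31.2-fold) and Myl9 (259-fold). Use in nonmuscle cells is not particular to these genes. Cald1 (caldesmon) was at 1080, 1513 and 700 CPM across the Nf1/p53 dKO lines and at 1318, 1237 and 1878 CPM across the Nf1/Cdkn2a dKO lines, and Tpm2, a tropomyosin, at 264, 390 and 198 CPM against 281, 130 and 535 CPM. Tpm1, which has muscle and nonmuscle isoforms, was at 1412, 1610 and 805 CPM against 2025, 2041 and 2977 CPM (0.88 ± 0.30, adjusted p = 0.159). Cnn2, the calponin of nonmuscle cells, was at 455, 460 and 215 CPM against 562, 598 and 1042 CPM (0.96 ± 0.38, adjusted p = 0.198). Tpm1 and Cnn2 were the 2 of 14 genes whose lines did not overlap, both higher in the Nf1/Cdkn2a dKO, where 14.8% of all genes were. Counts per gene do not separate the isoforms of Tpm1 and Cald1.

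**Figure D4:**
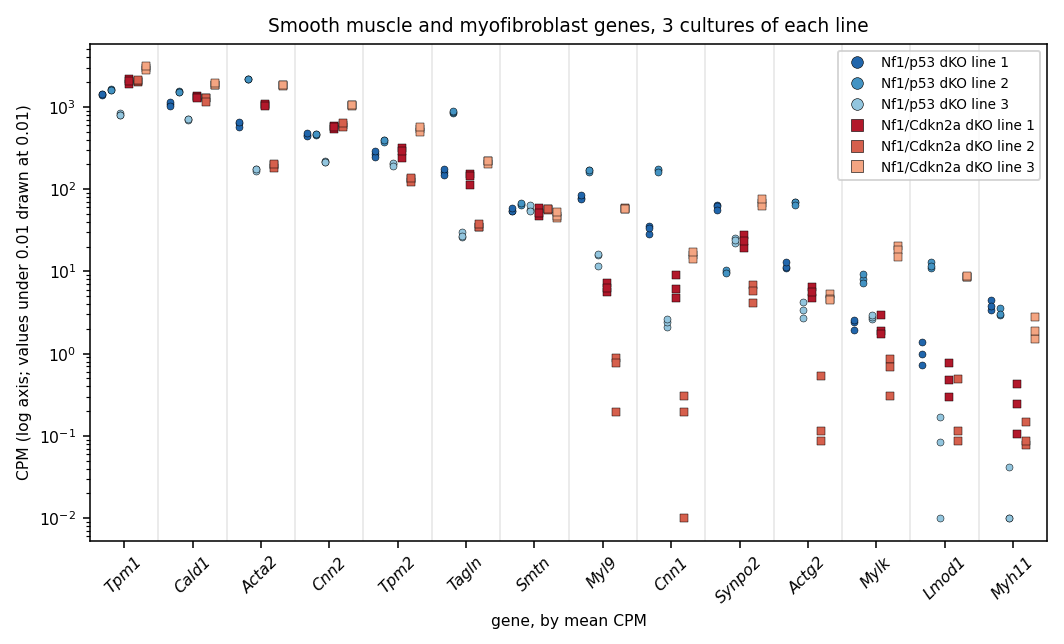
Levels of the 14 smooth muscle and myofibroblast genes (CPM, log axis, values under 0.01 drawn at 0.01) in the 3 cultures of each of 6 lines. Cultures of a line lie together where counts are high. They lie apart where counts are few, as for Cnn1, Myl9 and Actg2 in Nf1/Cdkn2a dKO line 2. Lines of the Nf1/p53 dKO differ by 71.1-fold (Cnn1), 274-fold (Myh11) and 143-fold (Lmod1). For Myh11 and Lmod1 the lowest line, Nf1/p53 dKO line 3, has only 1 and 6 counts, so these folds are uncertain. Cnn2 and Tpm1 are the genes in which the genotypes do not overlap.

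The sarcomere and smooth muscle genes did not follow one order of lines. Nf1/p53 dKO line 3 had the highest sarcomere sum (176 CPM) and the lowest smooth muscle sum (2224 CPM), and Nf1/Cdkn2a dKO line 3 a low sarcomere sum (16.0 CPM) and the highest smooth muscle sum (8701 CPM). Nf1/p53 dKO line 2 was second highest in both. With 6 lines this is given as a description only.

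Other muscle genes, from lists made with earlier results in view, were described beside the members. The filter can pass a gene through the lines of a single genotype, so the counts for each list only describe the genes that passed. Of all genes tested, 1.16% were called lower and 0.638% called higher in the Nf1/Cdkn2a dKO. Of the genes of excitation and contraction coupling, 12 of 15 were tested and 1 was called, lower in the Nf1/Cdkn2a dKO: Jph2, which joins the cell membrane to the calcium store, at 21.8, 21.7 and 16.6 CPM against 0.610, 0.188 and 0.845 CPM (-5.19 ± 0.59, adjusted p = 0.0272). All 12 had a log2 fold change below 0 (median -1.84). At the other end, the calcium channel subunit Cacng1 had 60, 232 and 3028 counts against 2, 3 and 0, while Cacna2d1 was at 37.6 to 62.5 CPM against 39.7 to 58.9 CPM. Of the Z-disc and sarcomere accessory genes, 21 of 32 were tested and 0 were called (8 at an unadjusted p under 0.05, all lower, beside 12.5% of all genes), with a median of -1.46. They ran from Xirp1, at 20, 148 and 38 counts against 6, 0 and 0, to Trim54, at 6, 13 and 1 counts against 50, 86 and 1. The highest mean CPM was that of the muscle ubiquitin ligase Fbxo32, at 19.95, 8.44 and 32.4 CPM against 11.4, 15.9 and 13.9 CPM.

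Acetylcholine receptor subunits of the neuromuscular junction had 6 of 8 genes tested, 1 called lower (Chrnd, at 255, 1179 and 2895 counts against 3, 0 and 0) and all 6 without overlap between genotypes and lower in the Nf1/Cdkn2a dKO. Of all genes, 1.16% were called lower and 16.6% were lower without overlap. Chrnd passed the filter through the Nf1/p53 dKO lines alone, so these counts only describe the genes that passed. Chrna1 was at 27.8, 78.5 and 161 CPM against 27.2, 7.24 and 12.1 CPM, so that Nf1/Cdkn2a dKO line 1 was close to the lowest Nf1/p53 dKO line, and Chrnb1 at 39.8, 22.2 and 84.2 CPM against 8.79, 18.5 and 8.10 CPM. Of the myoblast fusion and adhesion genes, 7 of 10 were tested and 1 was called lower, Cdh15 (M-cadherin), at 34.2, 27.9 and 97.6 CPM against 0.273, 0.332 and 0.125 CPM (-7.76 ± 0.73, adjusted p = 0.0191). In the same list Jam2 (23.7, 34.7 and 26.5 against 83.2, 131.5 and 46.0 CPM) and Myof (779, 559 and 743 against 1368, 977 and 1329 CPM) were higher in each Nf1/Cdkn2a dKO line and were not called (adjusted p = 0.0826 and 0.0904).

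Myogenic factors had 10 of 13 genes tested and 2 called, both lower in the Nf1/Cdkn2a dKO. In that direction 1.16% of all genes were called. Of the 2 factors called, Myf5, which commits cells to the muscle lineage, had 2175, 1710 and 1999 counts across the Nf1/p53 dKO lines. It had 0, 0 and 1 in the Nf1/Cdkn2a dKO lines (adjusted p = 0.00672), and passed the filter through the Nf1/p53 dKO lines alone. The result for the other is left out here. Myod1 had 136, 19 and 14714 counts against 0, 0 and 0 and was not called (adjusted p = 0.172), and Myog, which acts at terminal differentiation, had 11, 4 and 77 counts against 0, 0 and 0. Line 3 of the Nf1/p53 dKO, the highest in Myod1, was also the highest line for Ttn, Des, Neb, Actn3, Mylpf, Tnnc1 and Mb, but not for Myh4 or the other genes of the 5 named above. Mef2c and Mef2d overlapped or lay close between genotypes (4.01 to 10.4 against 3.27 to 13.6 CPM, and 131 to 133 against 105 to 112 CPM). The 11 heart muscle genes had 3 tested and 0 called. Myl4 was at 0.387 to 1.29 CPM against 0.722 to 1.22 CPM and Nppb at 0.194 to 3.71 CPM against 2.52 to 5.33 CPM.

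SRF and its cofactors, which control many smooth muscle genes, had 6 of 7 genes tested and 0 called (edgeR, with 0 at an unadjusted p under 0.05). Srf itself was at 97.9 to 119 CPM against 102 to 130 CPM, Mrtfa at 76.1 to 89.2 CPM against 46.4 to 74.2 CPM, and Hdac5 at 53.5 to 88.5 CPM against 84.8 to 171 CPM. Myocd, myocardin, the cofactor of SRF in smooth muscle, had 106 counts in Nf1/p53 dKO line 2, 15 in Nf1/Cdkn2a dKO line 3 and 0 to 6 in the other 4 lines. Those were the 2 lines highest in Lmod1 and Mylk, and also in Acta2, Tagln, Cald1 and Tpm2. The other smooth muscle members did not share this top pair. Myh11, Cnn1, Myl9 and Actg2 were each higher in Nf1/p53 dKO line 1 than in Nf1/Cdkn2a dKO line 3. The part of Myocd in these levels was not tested. Of 22 cytoskeletal targets of SRF and MRTF, 1 was called higher in the Nf1/Cdkn2a dKO (Filip1l, 51.5, 66.4 and 25.9 against 194, 230 and 306 CPM, 2.35 ± 0.37, adjusted p = 0.0457), and 10 were at an unadjusted p under 0.05 in that direction (9.81% of all genes). Actb, with the highest mean CPM of the list, was at 2575 to 4558 CPM against 3882 to 4368 CPM, and Nexn, the lowest by fold, at 37.0 to 53.6 CPM against 15.9 to 30.3 CPM. The 6 nonmuscle myosin genes had 0 called. Myh9 was at 2415 to 2781 CPM against 2029 to 2878 CPM, Myl6 at 426 to 531 CPM against 478 to 973 CPM, and Myh10 at 193, 255 and 194 CPM against 7.36, 21.2 and 165 CPM.

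Markers of other cell types were set beside these genes, and their part in the results was not tested. The 12 Schwann cell markers summed to 31.2 to 148 CPM across the Nf1/p53 dKO lines, against 17.4 to 49.2 CPM across the Nf1/Cdkn2a dKO lines. Pmp22 (19.1 to 71.3 against 13.2 to 41.6 CPM) made up most of the sum in each line but Nf1/p53 dKO line 2, where it was 48.8 of 148 CPM. Of the 10 Schwann cell markers tested 0 were called, but all 10 had a log2 fold change below 0, with a median of -2.39, and 4 were at an unadjusted p under 0.05, all lower in the Nf1/Cdkn2a dKO, where 12.5% of all genes were. The median of the sarcomere genes tested was -1.76, and the part of these markers in it was not tested. The 12 mesenchymal and fibroblast markers summed to 8496 to 18363 CPM against 10442 to 17891 CPM, with 1 called lower, the matrix protein Dcn (119, 104 and 934 against 3.40, 6.59 and 4.29 CPM, -6.34, adjusted p = 0.047). The 8 leukocyte markers summed to 3.90 to 7.72 CPM against 6.69 to 8.28 CPM, and Cd3e, Itgam and Adgre1 (listed as Emr1) had under 10 counts in every line. The 6 endothelial markers summed to 1.35 to 2.09 CPM against 0.719 to 2.13 CPM, with 1 called lower (Tek, 0.412 to 1.08 against 0.0642 to 0.0782 CPM) and Erg under 10 counts in every line. Other smooth muscle and pericyte genes had 15 of 19 tested, with 1 called higher and 1 called lower, the Notch target Heyl (80, 83 and 117 counts against 2, 0 and 0).

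Some of these counts are uncertain by sequence. The actins Acta1, Actc1, Acta2 and Actg2 and the myosins Myh1, Myh2 and Myh4 are close copies of one another in their coding sequence, and how reads that fit several of them were treated is not given in the sources used here. Nor is the strand of counting, and 74.0% of the exonic bases of Tnnc2 overlap Ube2c on the opposite strand, 62.4% of those of Tagln overlap Gm48529, 27.6% of those of Mb overlap Gm49540, 21.9% of those of Atp2a1 overlap Rabep2, 16.3% of those of Smtn overlap Gm11946 and 15.5% of those of Ckm overlap A930016O22Rik.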

How the data were processed

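Bulk RNA-seq was run on 18 cultures. The counts deposited by the authors are raw: whole reads per gene, not normalized. Per the labels' processing notes, CASAVA, STAR 2.5 and DESeq2 1.14.1 were used with the builds GRCm38 and mm10. The counting tool, its annotation and its use of strand are not given in the sources used here. The study's statistics state 2 biological replicates per condition, while the labels give 3 lines per genotype in 3 cultures each.

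Counts of the 3 cultures were added up for each line, which stands for 1 tumor, and p-values measure the spread between lines. Genes were kept with filterByExpr (at least 10 counts in enough lines and 15 in all), scaled with TMM (factors 0.941 to 1.06) and compared by edgeR's quasi-likelihood test, two-sided, with Benjamini-Hochberg adjustment over all 15207 genes tested and a threshold of 0.05. Lines of one genotype were compared in a fit of the 18 cultures with a coefficient per line, over 14690 genes. No culture was a copy of another, since each pair within a line differed by more than counting noise. CPM used TMM-scaled depth, and levels per kilobase used the exon length of GENCODE M21 (GRCm38), which held 34490 of the 35275 genes. Of 224 list entries 215 matched by name and the rest by identifier. Promoter sequences came from RefSeq and 36 of 43 members had one. Tools were R 4.3.3, edgeR 4.0.16, limma 3.58.1, DESeq2 1.42.0, Python 3.11.15, numpy 2.4.6, pandas 2.3.3 and matplotlib 3.10.9. Some of the model fits were tested on simulated data.

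The members, the gene lists and the tests were chosen with earlier results of these data known. Every member is described, with its value in each line where it was called, had no overlap between genotypes with at least 10 counts in some line, or reached 10 CPM. Of each other list, the called genes, those with the highest and lowest fold change and the highest mean CPM are named, plus Nf1, Trp53 and Cdkn2a. Results for a few listed genes are left out here. Myog, Myocd, Sox10 and the leukocyte and endothelial markers at low counts were added after their values were seen. No fold is given where a genotype had at most 3 counts. Alternatives were the 18 cultures as separate samples in edgeR or DESeq2, limma-voom with a random effect per line, DESeq2 on 6 lines, other scalings and filters, replicate blocks, and each line or culture number left out.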

Additional observations from a re-analysis of the deposited data

Results flagged for a closer look

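Over the 34 contractile genes tested, the 9 cultures of each genotype were searched for a value far from the others (Dixon's test, critical value 0.493). Of 68 groups of cultures, 7 held one, and chance marks about 1 in 20. The cultures are not independent, since 3 share each line.

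Of the 7, 5 lay in culture 1 of Nf1/p53 dKO line 2. There Myh4 was at 29.7 CPM (next value 13.5), Tnnt3 at 11.5 CPM (next 4.41), Pvalb at 4.23 CPM (next 2.21), Casq1 at 0.922 CPM (next 0.451) and Actc1 at 1.22 CPM (next 0.412). All but Actc1 are genes of fast fibers. Actc1 is cardiac alpha-actin.

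The other two lay in Nf1/Cdkn2a dKO line 1, where Actn3 was at 5.44 CPM in culture 1 (next 2.72) and Tnni1 at 0.853 CPM in culture 2 (next 0.301), the latter on 16 counts. No culture was flagged for a smooth muscle gene. For most of these genes the lines lay far apart and the cultures of a line close together. The test could then hardly mark a single culture, so it does not show how steady these genes were between cultures.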

How the results depend on the processing

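The count of called genes depended on what was taken as a replicate. With the 18 cultures as separate samples, edgeR called 9 sarcomere and 5 smooth muscle genes (6096 of all genes) and DESeq2 13 and 6 (7224). Limma-voom with a random effect per line called 2 and 3 (2173), and DESeq2 on 6 lines 6 and 0 (2046), beside 1 and 0 (274) as reported. Cultures of a line share a tumor. Raw library totals gave 423 genes over the table. With 1 line or culture number left out, 0 to 1 sarcomere genes and 0 to 331 genes over the table were called, 0 of them without Nf1/Cdkn2a dKO line 1, which leaves fewer samples. Of 687 values of single members under alternatives, 603 kept their direction and side of the threshold, 29 reversed, in 10 members, 48 passed the threshold that had not and 7 no longer passed it.

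The median log2 fold change of sarcomere genes was -3.38 with limma-voom and ranged from -4.06 to -1.41 with 1 line or culture number left out, and that of smooth muscle genes from -1.37 to 0.46.

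Lines with the same number share only that number (correlations of -0.0988, -0.133 and -0.0848 between their deviations). The line number as a replicate block called 0 sarcomere genes and 0 genes over the table, and the culture number as a block over 18 cultures called 8 sarcomere, 5 smooth muscle and 5681 genes. The pairing changed the sign of Mylk (-0.25), Synpo2 (-0.25), Tpm2 (-0.009) and Myl4 (0.087).

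Other reversals were of log2 fold changes near 0 or of lines far apart, and the cause was not tested. Raw totals gave -0.058 for Tnnc1, -0.061 for Acta2 and -0.10 for Synpo2. Limma-voom gave -0.43 for Mylk, -0.25 for Synpo2, -0.038 for Tpm2 and 0.067 for Myl4, and Myl4 was 0.02 without the 2 cultures highest in Myh4, an alternative chosen after seeing the data. With 1 line or culture number left out, values ranged from -2.41 to 0.48 (Tnnt1), -1.82 to 0.017 (Tnnt2), -5.24 to 0.36 (Tnni1), -0.08 to 0.30 (Tnnc1), -0.65 to 1.39 (Acta2), -2.04 to 0.46 (Tagln), -1.66 to 1.45 (Mylk), -3.52 to 2.499 (Lmod1), -1.09 to 0.96 (Synpo2), -0.46 to 0.53 (Tpm2), -0.20 to 0.17 (Cacna2d1), -0.27 to 0.74 (Mef2c), -0.21 to 0.048 (Myh9) and -0.48 to 0.40 (Myl4).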
